A study of Mus musculus with 5 samples.

Results

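The genes described here encode 10 nuclear receptors that govern lipid, bile acid, glucose and foreign compound metabolism in hepatocytes: Nr1h4, Nr1h3, Ppara, Nr1i3, Nr1i2, Rxra, Nr0b2, Nr5a2, Hnf4a and Nr3c1. They were taken by symbol from the gene table of the array platform. All 10 have a probe, with 19 probes among the 20355 on the array and 10 of its 9930 named genes. Ppara has 5 probes, Nr1h4, Nr1i3, Nr1i2, Rxra and Hnf4a have 2 each, and 4 genes have 1. A probe is called here by its row number on the array, such as Nr1h4 probe 1597.

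RNA came from the livers of 5 male mice of the genotype Pitx3eyl-/-, 17 weeks of age, homozygous for the eyeless allele of Pitx3, a homeobox gene known for its part in lens and midbrain development. Each animal was hybridised on its own 2-colour cDNA array beside 1 pool of RNA from wild-type mice, which counts 4 animals in the sample labels and 6 in the labelling protocol; the sex, age and strain background of the pool are not stated. Mutant RNA carried Cy5 on replicates 1, 2 and 4; the dyes were swapped on replicates 3 and 5, where it carried Cy3. The mutation is in every cell, and no wild-type animal was hybridised singly, so the spread between wild-type livers is missing from every error below.

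Each value is a log2 ratio of the 2 channels, in which 1 unit is a 2-fold difference. A positive value is read as higher in the mutant. This is the likely direction and not a known one: it rests on the labels, which give the mutant as channel 1, and on a code for unmeasurable ratios whose sign is positive on replicates 1, 2 and 4 and negative on the swapped replicates 3 and 5. A ratio carries no level, so neither the abundance of a receptor nor the tissue label could be checked against the level of marker genes. Arrays with the same orientation had Pearson correlations of -0.02 to 0.11 over all probes, and arrays of opposite orientation -0.26 to -0.05.

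Nuclear receptors are transcription factors that bind DNA and, in most cases, a small lipophilic ligand. Nr1h4 encodes FXR, the bile acid receptor, Nr1h3 encodes LXR alpha, the oxysterol receptor, and Ppara the receptor for fatty acids that drives their oxidation. Nr1i3 (CAR) and Nr1i2 (PXR) sense drugs and other foreign compounds and switch on the enzymes that clear them. All of these pair with RXR alpha, the product of Rxra. Nr0b2 encodes SHP, a receptor without a DNA-binding domain that FXR induces and that represses bile acid synthesis, in part by binding LRH-1, the product of Nr5a2. Hnf4a keeps up hepatocyte gene expression, and Nr3c1 encodes the glucocorticoid receptor. Many nuclear receptors, though not all of those listed, read variants of the hexamer AGGTCA, and the NR5A subfamily reads a site with the core TCAAGG.

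The promoters of Nr0b2 and Rxra are printed. Theirs are the tested receptor probes whose arrays separated by dye orientation in the same pattern, as described below. Among untested probes, Nr5a2 probe 19028, Nr1i2 probe 19022, Nr1i3 probe 7638 and Rxra probe 19030 had every Cy3 array above every Cy5 array. These had 3 arrays each. Nr1i2 probe 335, also on 3 arrays, separated the other way, with its Cy3 array at -3.315 below both Cy5 arrays. With 3 arrays such a separation is 1 array against 2. The share of all probes on 3 arrays that separate so was not counted, so nothing about the receptors is read from it. By mean alone, 9 of the 15 receptor probes with both orientations were higher in Cy3, against 56.0% of all such probes. The RefSeq promoter table of the build GRCm38.p6 held 13 start sites of 9 of the genes, each a window from 250 bases before to 50 after the annotated start. AGGTCA on either strand was found in 3 of the 13 windows and TCAAGG on either strand in 1, against 16.3% and 14.4% of all 32851 windows in that table. The letters of both motifs can overlap in a longer match. Both windows below are written 5′ to 3′ on the gene's strand, with motif letters in capitals. In Nr0b2, TCAAGG begins 68 and 35 bases before the start, in the orientation of the gene. In Rxra, at the downstream of its 2 listed starts, the reverse complement TGACCT begins 87 bases before the start and AGGTCA 48 bases before it. The window of the upstream Rxra start, which is not printed, held neither motif. A match of letters is a description and not a bound site, and no binding was measured.
Nr0b2, chr4:133553126-133553425, plus strand: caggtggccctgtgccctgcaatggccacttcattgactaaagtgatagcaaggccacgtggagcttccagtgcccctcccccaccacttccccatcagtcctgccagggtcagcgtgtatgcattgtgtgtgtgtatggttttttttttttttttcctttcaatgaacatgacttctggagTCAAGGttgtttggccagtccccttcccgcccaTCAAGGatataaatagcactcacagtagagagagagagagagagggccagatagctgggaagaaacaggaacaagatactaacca
Rxra, chr2:27709042-27709341, plus strand: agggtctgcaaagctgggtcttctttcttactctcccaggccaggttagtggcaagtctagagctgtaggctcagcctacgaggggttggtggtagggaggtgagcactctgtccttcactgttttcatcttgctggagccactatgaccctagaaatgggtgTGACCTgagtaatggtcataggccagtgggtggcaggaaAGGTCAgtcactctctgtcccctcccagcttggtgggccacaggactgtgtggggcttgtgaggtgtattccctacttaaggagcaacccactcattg

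None of the receptor genes passed the adjusted threshold of 0.05 for a difference between mutant liver and the pool. Of the 19 probes, 7 from 6 genes met the filter (4 or more arrays measured, with each dye orientation among them) and entered the fit, and 0 of these 7 were called, where 0.00% of all 11300 tested probes were. At an unadjusted p under 0.05 the count was also 0 of 7, against 470 of the 11300 probes (4.16%). The test was limma's moderated test of the mutant coefficient, the mean log2 ratio with both dye orientations weighted equally, with Benjamini-Hochberg adjustment. The adjusted p was 0.999 for each of the 7, of which 4 lay above and 3 below 0. When probes of a gene were averaged, 7 of the genes could be tested, with 0 called and 0 under an unadjusted p of 0.05. Over all 6706 genes the shares were 0.00% and 3.94%. A gene mean took whichever probes had a value on an array, so the probes behind it can differ between arrays. The median coefficient of these 7 genes was 0.29, against 0.03 over all genes tested, with 4 genes above and 3 below 0. Without replicate 4 that median was 0.00, and with the sign of the swapped arrays turned, a reading of the direction that is less likely but possible, it was -0.80. In whole liver, fewer cells expressing a gene and less of its RNA per cell cannot be told apart.

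**Figure D1:**
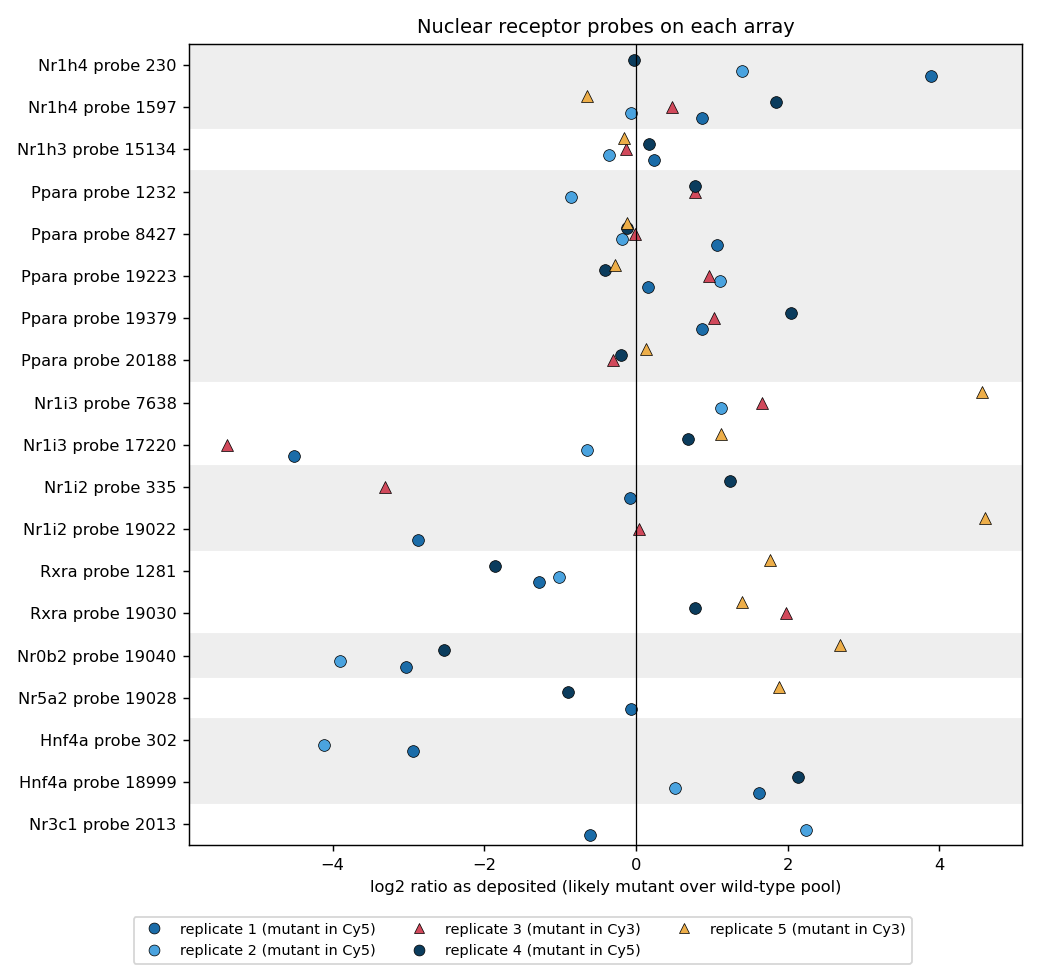
Log2 ratio (horizontal axis) of each of the 19 receptor probes (rows, grouped by gene with shading) on each array, with circles for arrays with the mutant in Cy5 and triangles for Cy3, set slightly apart vertically by replicate. The Nr1h3 values lie between -0.35 and 0.24, whereas Nr1i3 probe 17220 runs from -5.39 to 1.12, and the only Nr0b2 and Rxra probe 1281 triangles stand apart from their circles.

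Nr1h3, which controls cholesterol efflux and the lipogenic factor SREBP-1c, was the most evenly measured receptor. Its probe 15134 stood at 0.24, -0.35, -0.12, 0.17 and -0.15 on replicates 1 to 5. Replicates 1 and 4 are slightly above 0 and the others slightly below, and no value is more than 2-fold from its array's median. The mutant coefficient was -0.06 ± 0.27 (SE, 5 arrays), with a 95% interval of -0.74 to 0.62. A change of 2-fold in either direction thus lies outside the interval for this probe. The SD between arrays was 0.25, and 3.74% of all tested probes had a smaller one; the median over tested probes was 0.98.

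Ppara, the regulator of fatty acid oxidation, had 5 probes, of which 2 were measured on all 5 arrays. Probe 8427 read 1.07 on replicate 1 and -0.18, -0.01, -0.12 and -0.11 on replicates 2 to 5. Replicate 1 stands alone above 0 and the other 4 arrays nearly coincide. The coefficient was 0.10 ± 0.32, with a 95% interval of -0.72 to 0.91, and -0.11 without replicate 1. Probe 19223 read 0.17, 1.11, 0.97, -0.41 and -0.28, with its high arrays in replicates 2 and 3, and gave 0.32 ± 0.38. That coefficient was 0.0042 without replicate 3 and 0.63 without replicate 5. The highest animal thus differs between these probes of 1 gene.

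The other 3 Ppara probes had values on 3 arrays each and were not tested. Probe 1232 read -0.86 on replicate 2 and 0.79 on replicates 3 and 4. Probe 19379 was above 0 on all its arrays, at 0.87, 1.03 and 2.05 on replicates 1, 3 and 4. Probe 20188 lay near 0, at -0.30, -0.20 and 0.13 on replicates 3, 4 and 5. Averaged over probes, Ppara ran from -0.09 on replicate 5 to 0.70 on replicate 1, with a coefficient of 0.29 ± 0.29 and a 95% interval of -0.43 to 1.01.

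Nr1h4, the bile acid receptor, had 1 probe on all 5 arrays. Probe 1597 read 0.88, -0.06, 0.48, 1.85 and -0.65 on replicates 1 to 5. Replicates 1, 3 and 4 are above 0 and replicates 2 and 5 below it, so that both orientations hold both signs. The coefficient was 0.40 ± 0.40, with a 95% interval of -0.62 to 1.42; leaving out 1 array at a time gave 0.12 (without replicate 3) to 0.68 (without replicate 5). Probe 230 was measured only with the mutant in Cy5, at 3.90, 1.40 and -0.02 on replicates 1, 2 and 4. It is high where probe 1597 is near 0 or moderate, and near 0 on replicate 4, where probe 1597 is highest.

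The xenobiotic receptors had probes with wide ranges, 7.47 for Nr1i2 probe 19022 and 6.51 for Nr1i3 probe 17220. Nr0b2 probe 19040, with 6.59, was as wide. Nr1i3 probe 17220 read -4.51, -0.64, -5.39, 0.69 and 1.12 on replicates 1 to 5. Replicates 1 and 3, of opposite dye orientation, are far below 0 and the others lie between -0.64 and 1.12. The coefficient was -1.81 ± 1.22, with a 95% interval of -4.90 to 1.28, and it was -0.19 without replicate 3 and -3.44 without replicate 5. The latter had a limma unadjusted p of 0.0321 and an adjusted p of 0.905. Of all tested probes, 95.2% had a smaller SD between arrays than its 3.01.

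The second Nr1i3 probe, 7638, was above 0 on each of its 3 arrays, at 1.12, 1.66 and 4.56 on replicates 2, 3 and 5. On replicate 3 the 2 probes of this gene were 7.05 apart in log2 ratio. Nr1i2, whose product controls Cyp3a genes, had no probe that met the filter. Its probe 335 read -0.08, -3.31 and 1.24 on replicates 1, 3 and 4, and its probe 19022 read -2.87, 0.04 and 4.60 on replicates 1, 3 and 5. No array is low or high on both Nr1i2 probes. Averaged over probes, the coefficients were -0.35 ± 1.06 for Nr1i3 and 0.68 ± 1.18 for Nr1i2. The Nr1i2 mean is probe 335 alone on replicate 4 and probe 19022 alone on replicate 5. The Nr1i3 mean is probe 17220 alone on replicates 1 and 4. Differences between probes thus enter these coefficients as differences between arrays.

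Nr0b2, the bile acid-induced corepressor, separated by dye orientation. Its probe 19040 read -3.04, -3.91 and -2.54 on replicates 1, 2 and 4, with the mutant in Cy5, and 2.69 on replicate 5, with the mutant in Cy3; replicate 3 gave no value. The 3 Cy5 arrays are all low and the Cy3 array is high. Weighting both orientations equally, the mutant coefficient was -0.24 ± 0.45, with a 95% interval of -1.46 to 0.98. The dye coefficient, which is the distance of each orientation's mean from their midpoint and is negative where the Cy5 arrays are lower, was -2.92 ± 0.45 (limma unadjusted p 0.00234, adjusted p 0.429).

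Rxra, the shared partner, had the same pattern on probe 1281. It read -1.27, -1.01 and -1.86 on replicates 1, 2 and 4 and 1.77 on replicate 5, with no value on replicate 3. The mutant coefficient was 0.19 ± 0.39 and the dye coefficient -1.58 ± 0.39 (limma unadjusted p 0.0144, adjusted p 0.509). The second Rxra probe, 19030, read 1.98, 0.79 and 1.41 on replicates 3, 4 and 5, so that replicate 4 is low on 1 probe and high on the other. Averaged over probes, Rxra had a mutant coefficient of 0.42 ± 0.28 and a dye coefficient of -1.36 ± 0.28.

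These were the 2 of 7 tested receptor probes with an unadjusted p under 0.05 for the dye coefficient, against 7.38% of all tested probes, and 0 of 7 were called, against 0.00%. Among gene means the same 2 genes of 7 had such a p, against 7.10% of genes, and again 0 were called, against 0.00%. The gene means are not a separate check. For Nr0b2 the mean is its only probe. For Rxra it is probe 1281 alone on replicates 1 and 2 and probe 19030 alone on replicate 3. Opposite signs on every array of the orientations were seen on these 2 of the 7, against 11.7% of all tested probes and 15.1% of the 1668 probes that, like both of these, had 3 arrays in Cy5 and 1 in Cy3. Since replicate 5 is the only Cy3 array for both, dye orientation and that animal cannot be told apart. The fit matches that single array exactly. The SE and p of both probes thus come from the Cy5 arrays and limma's pooling over all probes, and hold no spread between Cy3 arrays. If the deposited swap arrays had not been turned, contrary to the direction read here, the dye coefficient would be the mutant coefficient and all 4 arrays of Nr0b2 and of Rxra probe 1281 would lie below 0. Over the 15 receptor probes with values in both orientations, 9 had a higher mean with the mutant in Cy3, against 56.0% of all such probes.

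**Figure D2:**
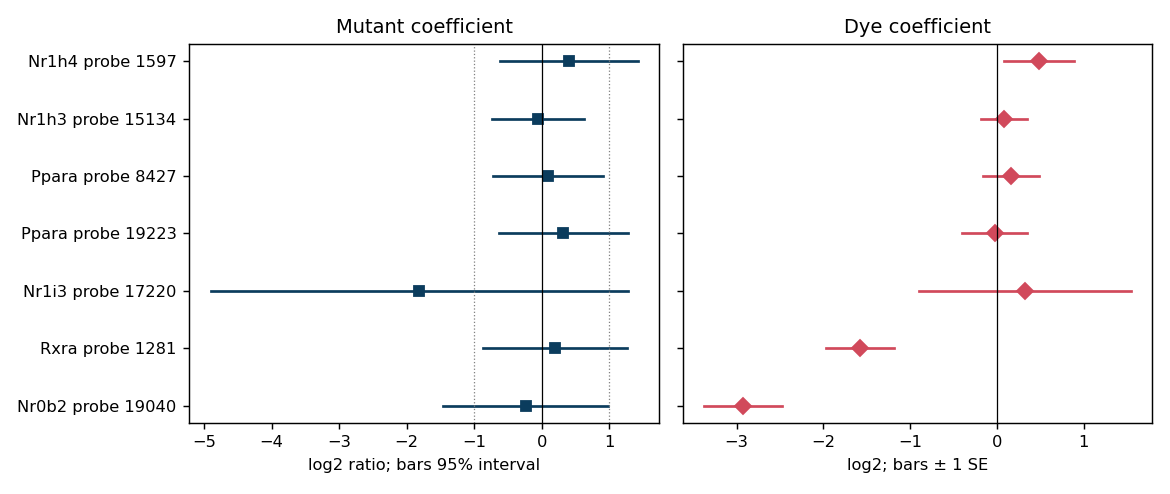
Mutant coefficient with its 95% interval (left, dotted lines at 2-fold) and dye coefficient with ± 1 SE (right), both in log2 units, for the 7 receptor probes tested. Every interval on the left includes 0; the intervals of Nr1h3 and of Ppara probe 8427 are the 2 that stay within 2-fold, while on the right Rxra at -1.58 and Nr0b2 at -2.92 lie farthest from 0.

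Nr5a2 and Hnf4a, which drive hepatocyte genes without a need for an added ligand, had too few values for the test. Nr5a2 probe 19028 read -0.06 and -0.89 on replicates 1 and 4 and 1.89 on replicate 5. Its only Cy3 array is the high one. Both Hnf4a probes were measured only with the mutant in Cy5. Probe 302 read -2.93 and -4.11 on replicates 1 and 2, whereas probe 18999 read 1.62, 0.51 and 2.14 on replicates 1, 2 and 4. On the shared arrays these probes of 1 gene thus have opposite signs and differ by 4.59 (median), and no direction can be given for Hnf4a. Nr3c1 probe 2013 had -0.60 on replicate 1 and 2.25 on replicate 2, and on replicate 3 it held the code for an unmeasurable ratio.

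Probes of the same receptor gene shared a sign in 17 of 41 comparisons on the same array, and their median absolute difference was 1.08. Over all 3004 genes with several probes on the array, signs were shared in 51.4% of 14494 comparisons and the median absolute difference was 1.23. A single probe's value is the value of that probe and cannot be read as that of the gene. Of the 5 probes with 1 sign on all of their arrays (2 or 3 each), each has another probe of the same gene with a value of the opposite sign. None of the 5 receptor probes with values on all 5 arrays had 1 sign throughout, where 5.99% of all such probes did.

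Probes measured on every array had the smaller ratios. The 5 probes with values on all arrays had a median distance of 0.51 from the array median, and 6 of their 25 values were over 2-fold away. The 10 probes measured on 3 arrays had a median distance of 1.09, with 18 of 30 values over 2-fold away. The 2 probes measured on 4 arrays, those of Nr0b2 and Rxra, break the order with a median of 2.22. Over all probes the same medians were 0.50 for 5 arrays and 1.15 for 3 arrays. In all, 34 of the 67 receptor values were over 2-fold from their array's median (50.7%), against 39.2% of all values. Values lying, within 0.001, at an array constant plus the log2 of a ratio of whole numbers up to 20 made up 25 of the 67 (37.3%), against 24.2% of all; for the receptor probes on all 5 arrays it was 3 of 25. All 3 values of Nr1h4 probe 230 and of Hnf4a probe 18999 and both values of Nr3c1 were of this kind. What these ratios stand for was not tested.

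**Figure D3:**
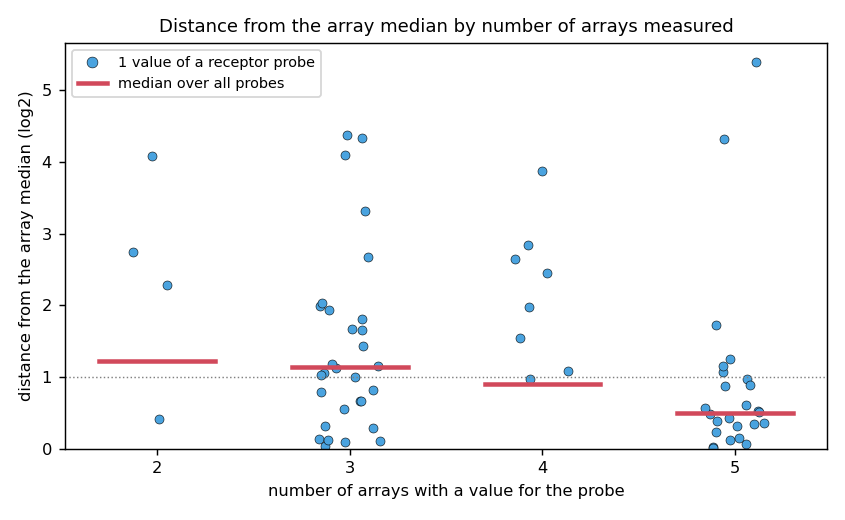
Absolute distance of each receptor value from the median of its array (log2, vertical axis) by the number of arrays on which the probe has a value (horizontal axis, points spread sideways); red bars are the median over all probes of that class and the dotted line marks 2-fold. The bars fall from 1.22 at 2 arrays to 0.50 at 5 arrays, and the Nr1i3 values of replicates 1 and 3 are the receptor values above 4 in the class measured on all 5.

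For each receptor probe measured on all arrays, the probe of another named gene with the closest values was found by the root mean square difference over the 5 centred arrays. Nr1h3 was closest to Pcyt2, of phosphatidylethanolamine synthesis, with a difference of 0.09 and values between -0.21 and 0.22. Nr1h4 probe 1597 was closest to Ttc4 at 0.13, Ppara probe 8427 to Smdt1, a subunit of the mitochondrial calcium uniporter, at 0.12, and Ppara probe 19223 to Slc25a47 at 0.19. For Nr1i3 the closest, Cwc22, was 1.55 away. These are the nearest of 4592 or 4593 candidates and are given as a description. The 2 Ppara probes were 0.84 apart, and 51.9% of the other genes' probes were closer to probe 8427 than that, and 34.2% were closer to probe 19223.

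The other nuclear receptors on the array gave no call either. Of 39 further members of the family listed, 29 had a probe and 13 could be tested as gene means, with 0 called, 0 under an unadjusted p of 0.05, 6 above and 7 below 0 and a median coefficient of -0.14. The lowest p belonged to Nr4a2, an immediate early orphan receptor, at 1.22 ± 0.55, with values from -1.97 on replicate 2 to 3.94 on replicate 3. The dye coefficient of Nr4a2 was -1.62 ± 0.55, which would be its mutant coefficient with the swapped arrays turned. Its relative Nr4a3 had 1.33 ± 0.70, at 3.73 and 3.18 with the mutant in Cy3 and 1.06 and -2.66 in Cy5.

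Genes that these receptors are known to control were listed by receptor, and 0 were called. Over the 60 distinct target genes tested, 31 lay above and 29 below 0, with a median coefficient of 0.01, and 4 (6.67%) had an unadjusted p under 0.05, against 3.94% of all genes. A target list names genes that a receptor can act on, and many are shared with other regulators.

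Of the bile acid genes under FXR and SHP, 4 of 8 tested lay above 0, with a median of 0.09 and medians of -0.20 to 0.23 when 1 array was left out. With the swapped arrays turned, 3 of the 8 lay above 0 and the median was -1.03. Fgfr4, the hepatic receptor for the bile acid-induced hormone FGF15, had 1.56 ± 0.46 (limma unadjusted p 0.0237, adjusted p 0.998). It read -0.81, -0.06 and 0.67 on replicates 1, 2 and 4 and 3.19 on replicate 5. As for Nr0b2, replicate 5 is its only Cy3 array and is the high one, so its SE and p hold no spread between Cy3 arrays. Cyp7b1, an oxysterol hydroxylase, had 0.70 ± 0.34 and was above 0 on all 4 of its arrays, at 0.90, 1.74, 0.12 and 0.04 on replicates 1, 2, 3 and 5.

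Targets of CAR and PXR had 6 of 9 tested genes above 0 (median 0.14). Cyp3a11, the main PXR-induced P450, ran from -0.03 to 0.75, with 0.28 ± 0.26. The glutathione transferase Gstm3 ran from -2.97 to 2.44, with 0.84 ± 0.60. Targets of LXR had 5 of 10 above 0 (median -0.00). Lpl, lipoprotein lipase, stood at 0.44 ± 0.35 and Mlxipl, the carbohydrate response factor ChREBP, at -0.51 ± 0.46, the latter with -2.60 on replicate 5 and -0.07 to 0.64 elsewhere.

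Targets of PPARA had 8 of 11 tested genes below 0, with a median of -0.19 and medians of -0.38 to -0.01 when 1 array was left out. The 2 members with the lowest p lay above 0. The lipid droplet protein gene Plin2 read 1.07, 1.89, 1.70, 2.70 and -0.33 on replicates 1 to 5, high on 4 arrays and not on replicate 5, with 1.28 ± 0.44 (limma unadjusted p 0.0304, adjusted p 0.998). Fabp1, the liver fatty acid binding protein, had 0.66 ± 0.39 and a negative value, -0.40, on replicate 2.

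Targets of HNF4A had 7 of 11 above 0 (median 0.14). Cyp2d10 was above 0 on all 4 of its arrays, at 0.93, 2.81, 4.20 and 1.27 on replicates 2 to 5, with 2.30 ± 0.68 (limma unadjusted p 0.0237, adjusted p 0.998). Trf, transferrin, was above 0 on all 4 of its arrays as well, from 0.17 to 1.58, with 0.90 ± 0.42. Targets of the glucocorticoid receptor had 5 of 9 above 0 (median 0.05). Tat, the classical glucocorticoid-induced liver enzyme, read -0.13, -0.73, -0.998, -0.33 and -1.32, below 0 on all 5 arrays, with -0.78 ± 0.28 (limma unadjusted p 0.0335, adjusted p 0.998). The metallothionein gene Mt2, another such target, had -0.999 ± 0.49, with -1.96 and -2.23 on replicates 4 and 5 and -0.66 to 0.05 elsewhere. Of the NR5A2 list 2 genes were tested, Apom at -0.61 ± 0.29 with all 5 arrays below 0, and the steroidogenic Cyp11a1 at 1.004 ± 0.63 with replicate 5, its only Cy3 array, at 3.36 and the other 3 arrays below 0.

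Partners of the receptors gave no call either. Coactivators and corepressors had 10 of 16 tested genes above 0 (median 0.16). Lpin1, a phosphatidate phosphatase that also coactivates PPARA, had -0.67 ± 0.39, and the acetyltransferase gene Crebbp -1.69 ± 1.04. The cytosolic chaperones that hold the glucocorticoid receptor and CAR had 5 of 7 below 0 (median -0.18). Fkbp4, an immunophilin of the glucocorticoid receptor complex, was below 0 on all 5 arrays, from -0.71 to -0.19, with -0.53 ± 0.27. Dnajc7, which retains CAR in the cytosol, had -0.65 ± 0.35, with -2.10 and -1.45 in Cy5 and 0.16 and 0.80 in Cy3. Genes that supply or carry ligands had 8 of 11 above 0 (median 0.08), again led by Cyp7b1 and Fabp1.

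**Figure D4:**
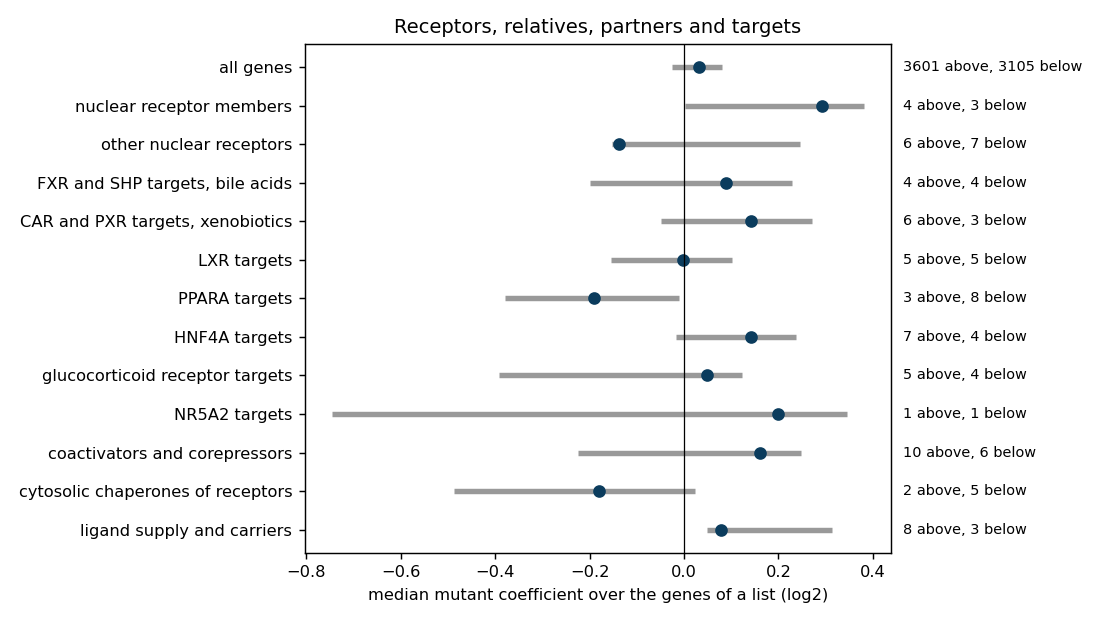
Median mutant coefficient (log2, points) over the tested genes of each list, with grey bars spanning the medians obtained when 1 array at a time was left out and the numbers of genes above and below 0 at the right. The medians lie between -0.19 and 0.29 and 9 of the 11 lists apart from the receptors themselves have bars that cross 0; the swapped arrays are taken as deposited.

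The list medians depend on the direction of the swapped arrays. With these turned, they were -1.19 for NR5A2 targets, -1.03 for FXR and SHP targets, -0.69 for the other nuclear receptors, -0.25 for coactivators and corepressors, -0.24 for ligand supply and -0.13 for glucocorticoid receptor targets. They were -0.04 for PPARA targets, 0.04 for chaperones, 0.08 for both the CAR and PXR and the HNF4A targets and 0.14 for LXR targets. Over all genes the turned median was -0.06, and over the 60 distinct targets it was -0.02, with 29 above and 31 below 0. The order of the lists thus differs between the directions.

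Marker genes of hepatocytes and of other cells that a liver sample can hold gave 25 testable genes, 0 of them called; 3 (12%) had an unadjusted p under 0.05, against 3.94% of all genes, and 15 lay above 0 (60.0%, against 53.7% of all genes). With the swapped arrays turned, 7 of the 25 lay above 0. In limma's test of the dye coefficient, 6 of the 25 had an unadjusted p under 0.05, against 7.10% of genes. For that coefficient 0 were called, against 0.00%. Hepatocyte markers had a median of -0.02 over 5 of 10 genes, with Tat and Trf, given above, at the lowest p.

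Among immune and blood cell markers, the macrophage protease gene Ctss had 2.41 ± 0.48 (limma unadjusted p 0.00551, adjusted p 0.998). It read 0.23, 1.78, 3.94 and 0.62 on replicates 1 to 4, above 0 on all 4 of its arrays. The highest of these, replicate 3, is its only Cy3 array, so the SE and p of Ctss hold no spread between Cy3 arrays. Its dye coefficient was -1.53 ± 0.48, which would be its mutant coefficient with the swapped arrays turned. The median over 3 of 9 Kupffer cell and macrophage markers was nevertheless -0.19, and Lyz2, lysozyme, had -0.39 ± 0.30. The T cell gene Cd8a had 1.26 ± 0.42 (limma unadjusted p 0.0266, adjusted p 0.998), and Cd3g, of the T cell receptor complex, 1.69 ± 0.93. All 3 of 6 lymphocyte markers that could be tested lay above 0 (median 1.26), 2 of them after each array was centred, and the turned median was -0.03. All 4 of 5 erythroid markers tested lay above 0 (median 0.53), led by the carbonic anhydrase genes Car1 (1.74 ± 0.86) and Car2 (0.61 ± 0.39), and their turned median was -0.02.

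Of 6 endothelial markers 2 were tested, Vwf at -0.55 ± 0.43 and Kdr at -0.63 ± 0.49. Vwf read 2.13, 0.94 and -0.32 on replicates 1, 2 and 4, in Cy5, and -1.76 and -2.27 on replicates 3 and 5, in Cy3. The median over 4 of 6 stellate cell markers was -0.05, with the collagen gene Col1a1 at 0.62 ± 0.37 and Dcn, decorin, at -0.40 ± 0.27. Of 5 bile duct markers 2 were tested, Sox9 at 0.64 ± 0.32 and Epcam at 0.33 ± 0.36. Sox9, Epcam and Col1a1 each lay below 0 on every array with the mutant in Cy5 and above 0 on every Cy3 array. The single tested adipose marker, Adipoq, had 1.13 ± 0.79 and the single pancreas marker, Ctrl, -1.002 ± 0.50. Adipoq ran from -3.39 on replicate 2 to 6.12 on replicate 3. Ctrl was below 0 on every Cy5 array and above 0 on every Cy3 array. Opposite signs on every array of the orientations were seen on 11.7% of all tested probes. The share over gene means, and over all tested markers, was not counted. The genes named here are those with the lowest p of their lists. The part of other cells in the receptor values was not tested.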

How the data were processed

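Livers of 5 mutant mice were profiled on 2-colour cDNA arrays against 1 wild-type RNA pool; 20 µg of total RNA per sample was labelled indirectly, per the labels' protocols. The authors deposited ratios per probe, and that they are log2 was read from the values. Scanner, background correction and normalization are not stated. Values beyond ±12, 1 repeated code per array, were set to missing, which left 71.4% of all values measured. Symbols came from the platform's probe table, with 14030 probes naming 1 gene, and the 9 genes with promoter entries from RefSeq (GRCm38.p6). limma 3.58.1 in R 4.3.3 fitted a mutant coefficient against 0 and a dye term (+1 Cy5, -1 Cy3) to all probes with values on 4 or more arrays in both orientations, and to gene means, with Benjamini-Hochberg adjustment over all rows and a call at 0.05. The pool counts as 1 control sample. Where only 1 Cy3 array entered a fit, the SE and p hold no spread between Cy3 arrays. The fit was run on simulated normal data without a dye effect, so its behaviour where values separate by dye was not tested. All probes of the receptors are named; from each gene list the 2 genes with the lowest p are named, and for each fully measured receptor probe its nearest other gene. Members and lists were chosen with earlier results of these data known. Alternatives were array centring, stricter and looser filters, kept codes, turned swap arrays, no dye term, no simple ratios and leaving out each array.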

Additional observations from a re-analysis of the deposited data

Results flagged for a closer look

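Ppara probe 8427 had 1 array apart from the rest. Replicate 1 stood at 1.07 (1.069 as deposited), against -0.18 to -0.01 on the other 4 arrays, and its gap to the nearest of them made up 0.861 of the whole range, above Dixon's critical value of 0.710 for 5 samples. Such a gap arises by chance in about 1 in 20 groups, and 7 probes were examined.

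The receptor ratios of Nr0b2 and Rxra differed between dye orientations. The dye coefficient was -2.92 for Nr0b2 probe 19040 and -1.58 for Rxra probe 1281, from limma's test of that term, with unadjusted p of 0.00234 and 0.0144 and adjusted p of 0.429 and 0.509. Neither passed the adjusted threshold. In both the swapped orientation is replicate 5 alone, so the test holds no spread between swapped arrays.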

How the results depend on the processing

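Every alternative left 0 probes and 0 genes called for the mutant, with 470 of 11300 probes (4.16%) at an unadjusted p under 0.05 and a lowest adjusted p of 0.999 under the settings used. That count was 242 of 6364 (3.803%) with values on all 5 arrays and 271 of 6587 (4.11%) without values at simple ratios, where fewer probes were tested, 834 of 11300 (7.38%) with the swap arrays turned and 796 of 12604 (6.32%) without replicate 1. The share of those probes above 0 was 56.6%, 53.5% after centring each array and 20.1% with the swap arrays turned; it ran from 40.8% without replicate 4 to 69.2% without replicate 1. The median over the receptor genes, 0.29, was -0.80 with the swap arrays turned, 0.00 to 0.41 with 1 array left out and 0.12 to 0.36 under the others. It rested on 3 to 8 genes, depending on the setting. The median over the 7 tested receptor probes, in place of genes, was 0.10. Turning the swap arrays also reversed Nr1h3 (0.080), Ppara probe 19223 (-0.028), Nr1i3 probe 17220 (0.32) and Rxra probe 1281 (-1.58), since the dye coefficient then takes the place of the mutant one. Without a dye term Rxra probe 1281 was -0.59. With 1 array left out, Nr1h3 ran from -0.11 to 0.035 and Ppara probe 8427 from -0.11 to 0.21; Nr1h3 was above 0 without replicate 2 and Ppara probe 8427 below 0 without replicate 1. Nr1h4 probe 1597 and Nr0b2 kept their sign under every setting in which they could be fitted, but Nr0b2 moved from -0.24 to -1.70 without a dye term and -2.92 with the swap arrays turned, and ran from -0.39 to -0.05 with 1 array left out. No paired analysis was possible because the labels give 1 group only. With 5 arrays against 1 pool, 2 of the 7 receptor probes tested had an interval that stayed within 2-fold; 12 of the 19 receptor probes had too few values to test, and the spread of wild-type animals is unknown.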
